A study of Mus musculus with 4 samples.

Results

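Interferon regulatory factors are a family of transcription factors that turn interferon and pathogen signals into gene expression, and some of them also steer the development of blood cells. Members were taken as the probe sets whose only gene symbol in the platform's annotation was Irf1, Irf2, Irf3, Irf4, Irf5, Irf7, Irf8 or Irf9. This gave 14 probe sets of the 45101 in the value table, for 8 of 18193 genes, with 4 for Irf3, 2 each for Irf4, Irf5 and Irf8 and 1 each for the others.

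RNA came from mouse leukemic cells carrying the MLL-AF9 fusion gene, a myeloid leukemia driver, purified from the bone marrow of transplanted C57BL/6 recipients. The 4 samples, each on its own 1-colour Affymetrix array, form a wild-type group (WT) and an Ezh2 KO group of 2 samples each. Ezh2 is the catalytic subunit of Polycomb repressive complex 2, which places the repressive methyl mark on histone H3 lysine 27. In both groups the leukemic cells carry MLL-AF9, so that no sample is of normal marrow. For the KO samples a protocol entry of the labels names marrow lacking Ink4a and Arf, while the genotype entry names Ezh2, and the group is called Ezh2 KO after the latter. How the cells were purified is not stated. The labels also leave unsaid whether the samples are from different animals or leukemias, and p-values therefore reflect only how far these arrays scatter, possibly for technical reasons.

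The family shares a DNA-binding domain with conserved tryptophans that recognises GAAA repeats, as found in the interferon-stimulated response element (ISRE). Irf1 and Irf8 are themselves induced by interferon-gamma, through a gamma-activated site (GAS) in their promoters. Irf8 is also a lineage factor of monocytes and dendritic cells, restrains granulocyte production and is known as a tumour suppressor in myeloid leukemia.

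The promoter windows of the genes that fell, Irf1 and Irf8, are shown because each holds a GAS match, together with that of Irf2, which holds GAS, ISRE and Ets-IRF matches and did not pass the test. Each is the 250 bases before an annotated start in RefSeq (GRCm38.p6), on the gene's strand, with matches in capitals. The windows are chr11:53769764-53770013 for Irf1, chr8:120736108-120736357 for Irf8 and chr8:46739495-46739744 for Irf2, all on the plus strand.
Irf1: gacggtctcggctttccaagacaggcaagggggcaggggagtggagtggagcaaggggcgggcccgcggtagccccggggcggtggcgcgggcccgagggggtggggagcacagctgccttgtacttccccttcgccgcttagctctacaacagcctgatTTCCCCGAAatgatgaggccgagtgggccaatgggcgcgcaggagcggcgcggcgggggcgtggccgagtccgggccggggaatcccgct
Irf8: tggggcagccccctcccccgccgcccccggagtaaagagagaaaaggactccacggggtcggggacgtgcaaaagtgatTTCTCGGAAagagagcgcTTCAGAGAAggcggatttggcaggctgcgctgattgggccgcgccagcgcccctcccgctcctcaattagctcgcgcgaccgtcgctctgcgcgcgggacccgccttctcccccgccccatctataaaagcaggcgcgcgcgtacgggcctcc
Irf2: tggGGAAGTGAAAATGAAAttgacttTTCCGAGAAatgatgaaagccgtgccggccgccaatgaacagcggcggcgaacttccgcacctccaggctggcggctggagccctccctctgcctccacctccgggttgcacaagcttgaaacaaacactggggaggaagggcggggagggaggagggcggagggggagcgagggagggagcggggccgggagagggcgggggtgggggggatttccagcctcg

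The motifs searched, on both strands, were TTCNNNGAA for GAS, GAAA and GAAA with 2 free bases between them for ISRE, and GGAA and GAAA with 2 free bases between them for the Ets-IRF composite element, at which Irf4 or Irf8 binds with the Ets factor PU.1. Counting the first base before the start as -1, the Irf1 window had TTCCCCGAA at -90 to -82. The Irf8 window had TTCTCGGAA at -171 to -163 and TTCAGAGAA at -153 to -145. In the Irf2 window the GAS match TTCCGAGAA lay at -224 to -216, and the ISRE match GAAAATGAAA at -241 to -232 overlapped the Ets-IRF match GGAAGTGAAA at -247 to -238. RefSeq gave 11 windows for the 8 genes, of which 3 held GAS, 1 ISRE, 1 the Ets-IRF element and 8 none of them. The 8 without a match include the further windows of Irf1 and Irf8 and both windows of Irf9. Among 32851 windows of all genes 7.02% held GAS, 2.98% ISRE and 2.3% the Ets-IRF element. The printed windows are also rich in CpG, with 25 in Irf1, 29 in Irf8 and 17 in Irf2, against a median of 6 over all windows. This is not particular to them. Among the windows not printed, the further Irf1 window had 35, Irf5 25, Irf3 16, Irf4 11 and the further Irf8 window 8. Those of Irf9 had 7 and 1, and Irf7 had 3. A match describes letters only and is not a measured binding site.

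The comparison asks which of these factors differ in transcript level between leukemic cells labelled WT and Ezh2 KO. Irf8 and Irf1 were lower in the KO cells by about 1.5-fold, and 0 member probe sets were higher at the threshold. Irf9 lay lower on both KO arrays but just missed the threshold, while Irf2, Irf3, Irf5 and Irf7 did not pass and Irf4 lay near background. Of the 14 probe sets 12 passed the filter on dim signals, a mean intensity of 21.93, and were tested. At a limma adjusted p under 0.05, 3 of these 12 (25.0%) were called, all 3 lower in the KO, against 7.31% of the 31526 probe sets tested. Over all probe sets 3.91% were called higher and 3.39% lower, 1234 against 1069, and with each array centred on its median the split was 600 against 1130. The KO and WT arrays did not overlap for 8 of the 12 tested probe sets (66.7%), against 49.6% of all, and 7 of these 8 lay lower in the KO (21.7% of all tested lay lower without overlap). The median log2 change of the 12 was -0.29, against 0.04 over all probe sets tested. These are bulk samples, in which fewer cells of a type and less RNA per cell cannot be told apart.

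**Figure D1:**
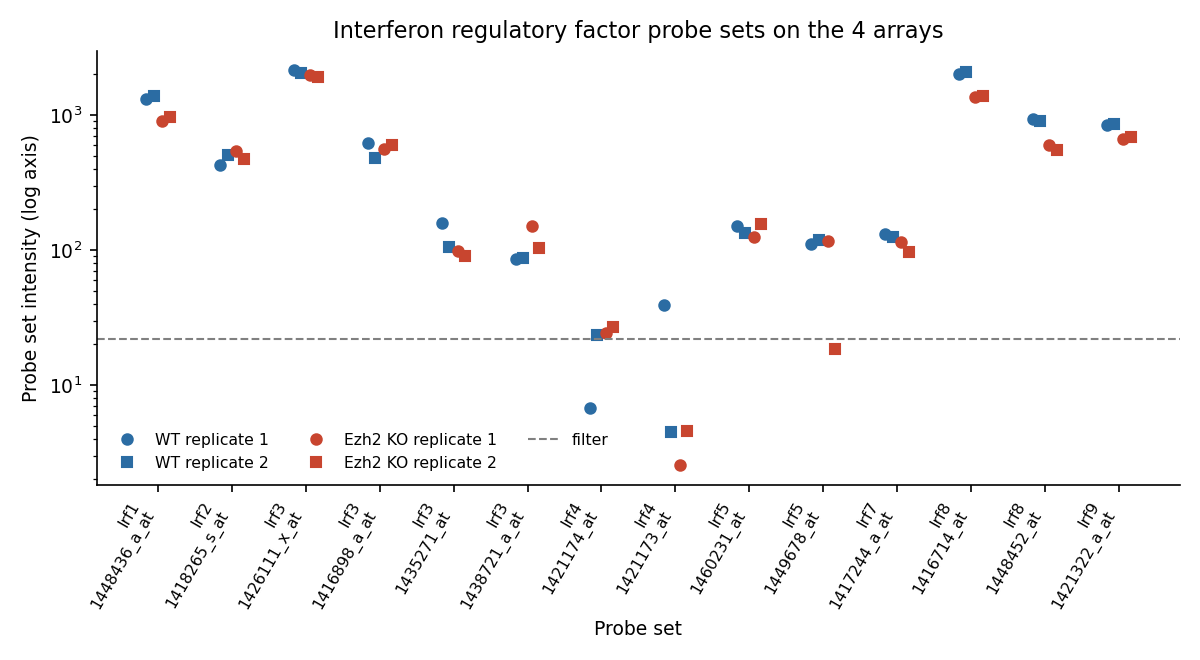
Intensity (log axis) of the 14 probe sets on each array, with WT in blue, Ezh2 KO in red, replicate 1 as circles, replicate 2 as squares and the filter of 21.93 as a dashed line. The KO arrays lie below the WT arrays for Irf1, Irf9 and both probe sets of Irf8, and Irf4 scatters around the filter. Heights of different probe sets are not comparable.

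Irf8 was read by 2 probe sets, and both fell. Probe set 1416714_at was at 2014 and 2085 intensity units on the WT arrays and at 1370.2 and 1386 on the KO arrays. Both KO arrays were low and the groups lay far apart: the gap between the nearest arrays was 0.534 on the log2 scale, against differences of 0.0498 between the WT arrays and 0.0161 between the KO arrays. The mean went from 2049.6 ± 50.4 to 1378 ± 11.02 (SD, n = 2 arrays, as for all means here), or -0.57 on the log2 scale (SE 0.08, 1.48-fold, limma adjusted p = 0.0024). The other probe set, 1448452_at, was at 934 and 897 in the WT and at 603 and 549.8 in the KO. Its arrays did not overlap either, with means of 916 ± 25.5 and 576 ± 37.4 and a value of -0.65 on the log2 scale (SE 0.10, limma adjusted p = 0.0047). The 95% intervals of both probe sets, -0.74 to -0.40 and -0.88 to -0.43, overlap, and the difference between them was not tested. The annotation ties both to the same transcript record, so they are readings of 1 gene, not separate evidence.

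Irf1, the founding member and an activator of MHC class I, antigen processing and guanylate-binding protein genes, fell to a similar extent. It was at 1318 and 1377 on the WT arrays and at 909.7 and 966 on the KO arrays. Both KO arrays lay below both WT arrays, with a gap of 0.441 on the log2 scale against 0.0634 and 0.0852 within the groups. Means of 1348 ± 42.3 and 938 ± 39.8 corresponded to -0.52 on the log2 scale (SE 0.09, 1.43-fold, 95% interval -0.71 to -0.32, limma adjusted p = 0.0072).

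Irf2 competes with Irf1 for the same DNA element and mostly represses. Its arrays were at 427 and 504 in the WT and at 539 and 472 in the KO, so that the groups overlapped. The log2 change was 0.12 (95% interval -0.17 to 0.41, limma adjusted p = 0.684), with means of 465 ± 54.7 and 506 ± 47.3. Within each array, log2 Irf1 minus log2 Irf2 was 1.59 and 1.42 in the WT and 0.74 and 1.01 in the KO. This quantity was lower on both KO arrays, by -0.63 on average, which describes unequal change of the 2 signals on these arrays and not their relative amount. The exact two-sided permutation p was 0.333, the smallest that 2 against 2 arrays can give, so this test could not decide.

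Irf9 is the DNA-binding subunit of ISGF3, the complex that carries the type I interferon signal to ISREs. It was at 846 and 863 in the WT and at 665 and 688 in the KO. The arrays did not overlap, and the gap of 0.292 on the log2 scale was larger than the differences of 0.0288 and 0.0486 within the groups. With means of 855 ± 12.3 and 676 ± 16.5 the log2 change was -0.33 (SE 0.09, 95% interval -0.54 to -0.12), and the limma adjusted p of 0.0697 missed the threshold. In a fit with 1 probe set a gene, over 13928 genes, the same values gave a limma adjusted p of 0.0441 and a call, as they did with averaged probe sets (0.0461) and with the replicate block (0.0399).

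**Figure D2:**
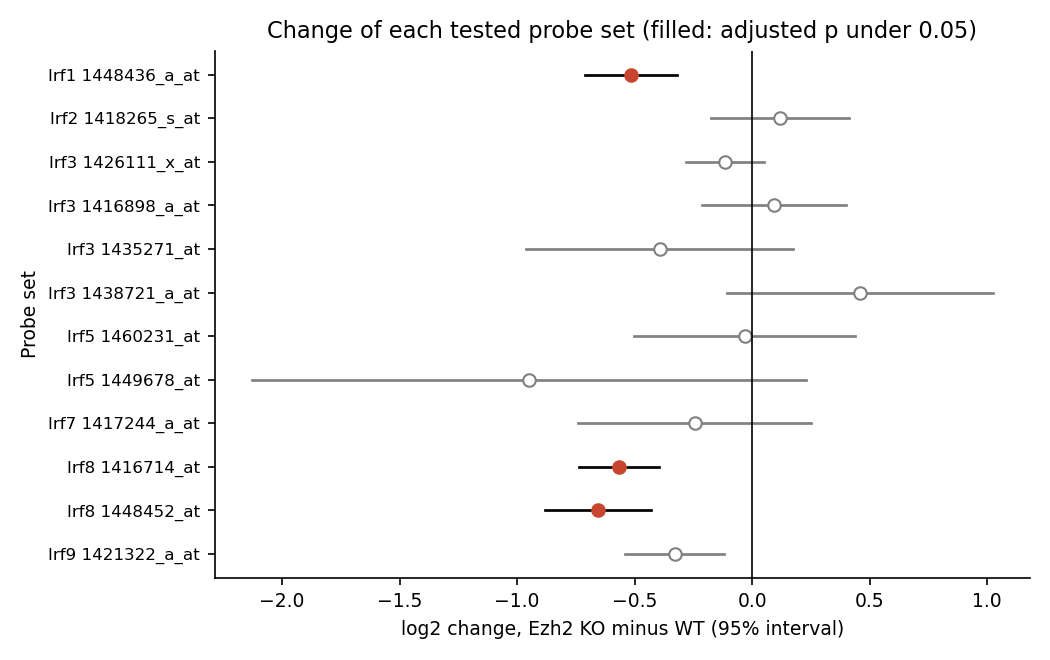
The log2 change (Ezh2 KO minus WT, 2 arrays each) of the 12 tested probe sets as points, with 95% intervals from the limma fit as lines. The filled points, Irf1 and both Irf8 probe sets, passed an adjusted p of 0.05, and the interval of Irf9 also lies below 0.

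Irf3 and Irf7 are the factors that TBK1 and IKK-epsilon phosphorylate after virus sensing and that switch on type I interferon genes. The 4 probe sets of Irf3 disagreed in direction and 0 of them were called. The one of highest intensity, 1426111_x_at, was at 2140.15 and 2067 in the WT and at 1967 and 1913 in the KO. Its groups did not overlap, but the log2 change was only -0.12 (95% interval -0.28 to 0.05, limma adjusted p = 0.426). Probe set 1416898_a_at was at 621 and 478 in the WT and at 563 and 601 in the KO, with overlapping groups and a log2 change of 0.09. Both remaining Irf3 probe sets were dim, and their groups did not overlap but ran in opposite directions. Probe set 1435271_at went from 159 and 105 to 98.4 and 91.03, a log2 change of -0.39 (limma adjusted p = 0.433). Probe set 1438721_a_at went from 86.5 and 87.3 to 151 and 104, a log2 change of 0.46 (limma adjusted p = 0.349). Irf3 therefore has no single direction here. The interval of its brightest probe set excludes a fall as large as that of Irf8 or Irf1. That of 1435271_at, -0.96 to 0.17, includes such a fall, so the exclusion does not hold for every Irf3 probe set.

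Irf7 was at 132 and 124 in the WT and at 115 and 96.98 in the KO. Both KO arrays were below the WT arrays, by a gap of 0.102 on the log2 scale, which is smaller than the difference of 0.209 between the KO arrays. The log2 change of -0.25 did not pass (95% interval -0.74 to 0.25, limma adjusted p = 0.600), and the interval includes changes of the size seen in Irf8.

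Irf5 acts downstream of Toll-like receptors and MyD88 and drives inflammatory cytokine genes in macrophages. Probe set 1460231_at was at 152 and 135 in the WT and at 124 and 156 in the KO, with a log2 change of -0.03 (95% interval -0.50 to 0.44). The other probe set, 1449678_at, was at 111 and 118 in the WT and at 117 and 18.4 in the KO. KO replicate 2 alone was low there and decided the value of -0.95 (SE 0.52, limma adjusted p = 0.350). Without KO replicate 2 the log2 change was 0.03, and without KO replicate 1 it was -1.93 with a limma adjusted p of 0.0037. On the first Irf5 probe set KO replicate 2 was the highest of the 4 arrays.

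Irf4, the close relative of Irf8 used by B cells, plasma cells and activated T cells, was dim on both of its probe sets and was not tested. Probe set 1421174_at was at 6.77 and 23.4 in the WT and at 24.3 and 26.7 in the KO. Probe set 1421173_at was at 39.1 and 4.52 in the WT and at 2.56 and 4.55 in the KO. On 1421174_at both KO arrays lay above both WT arrays, but the gap was 0.0301 on the log2 scale, against 0.792 between the WT arrays. On 1421173_at the groups overlapped and the WT arrays differed by 1.42. A difference between groups could therefore not be resolved at this signal. Means of 20.3 and 12.7 over the 4 arrays put the probe sets just below and well below the filter of 21.93.

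Where 1 array was left out in turn, Irf8 stayed between -0.59 and -0.54 on probe set 1416714_at and between -0.72 and -0.59 on 1448452_at, and Irf1 between -0.56 and -0.47. These 3 calls were also kept under all other alternatives that tested the probe set, except 1. With a single prior variance for all intensities 0 of 31526 probe sets were called, 0 members among them (in the limma fit with the trend 21.1% of all probe sets, 6637, and 4 of 12 members had an unadjusted p under 0.05). The limma adjusted p of Irf1 was then 0.197, and those of the Irf8 probe sets were 0.175 and 0.172. The calls thus rest on a prior variance that follows intensity.

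**Figure D3:**
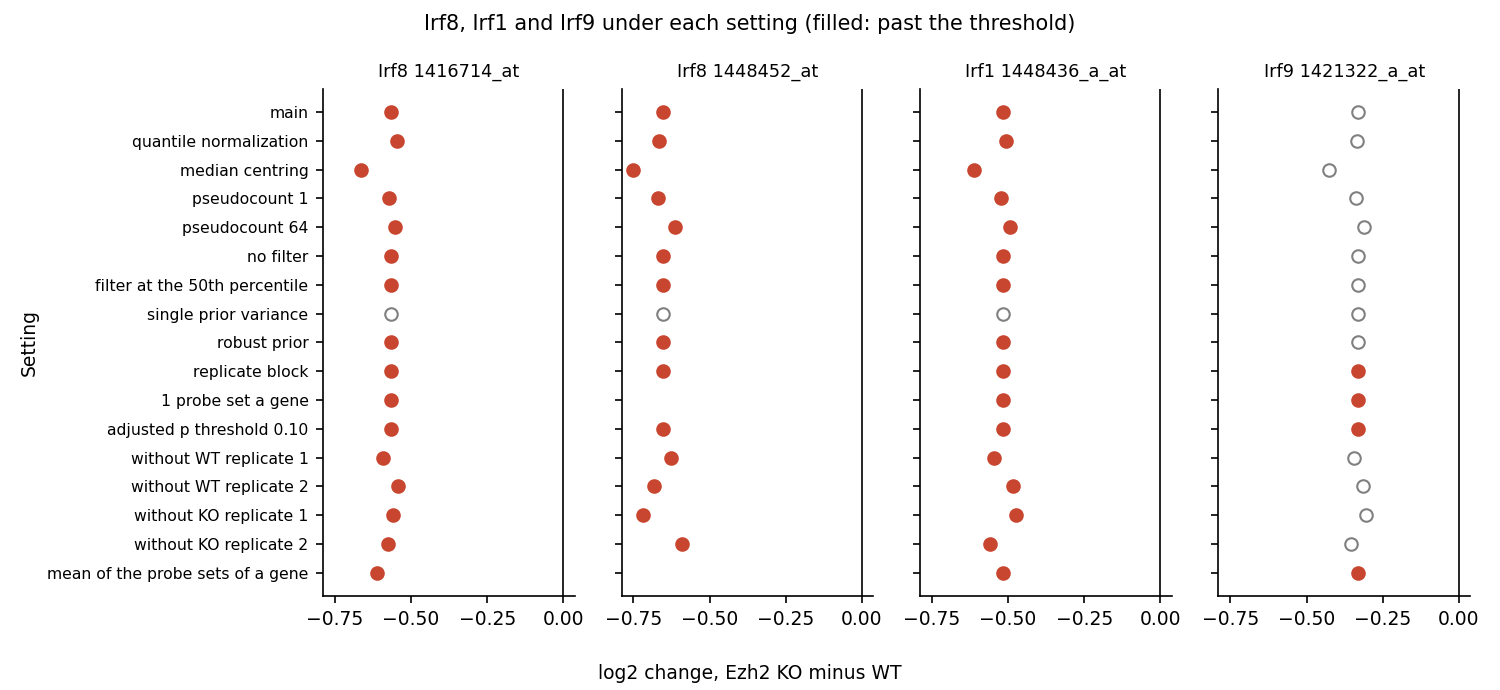
The log2 change (x axis) of both Irf8 probe sets, Irf1 and Irf9 under each processing setting (y axis), filled where it passed that setting's threshold. Irf8 and Irf1 are filled in every row shown except the single prior variance, while Irf9 is filled in 4 rows and lies below 0 in all. An empty row means that the probe set was not used alone in that setting.

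The genes whose profile over the 4 arrays lay nearest to those of the called members were found among probe sets above an intensity of 100. The measure was the Euclidean distance between log2 values centred on each probe set's own mean, over only 4 arrays, so many genes must lie close. Nearest to Irf1 were Dbi (distance 0.0217), Slc25a33 (0.0287) and Timm8a1 (0.0348). For Irf8 on 1416714_at they were Elp2 (0.0167), Kif1b (0.0177) and Dtx3l (0.034), and on 1448452_at Tufm (0.0433), another probe set of Kif1b (0.0462) and Mfsd13a (0.0464). Kif1b, a kinesin motor gene, was thus near both Irf8 probe sets. It was at 3072 and 3170 in the WT and at 2061 and 2092 in the KO on the first of its probe sets.

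Upstream of the factors, the interferon genes themselves gave little signal. Genes outside the family are given by their tested probe set of highest mean, by which 9.18% of 13928 genes were called, 4.52% higher and 4.66% lower. Of 5 listed interferon genes 2 were tested and 0 called in the limma fit, 0 of them also at an unadjusted p under 0.05. Ifnb1 was at 25.7 and 64.7 in the WT and at 31.03 and 50.7 in the KO, and Ifna1 at 52.5 and 37.03 against 60.1 and 22.4. The groups overlapped for both. Ifng, which encodes interferon-gamma, was at most 5.91 on any array and below the filter.

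Receptors and JAK-STAT signalling genes were called in 0 of 11 tested members in the limma fit (3 at an unadjusted p under 0.05), with a median log2 change of -0.06. The interferon receptor subunit genes Ifngr1 and Ifnar2, the brightest of the list, had log2 changes of -0.01 and -0.06. Socs1, the feedback inhibitor of JAK kinases and an Irf1 target, was at 80.1 and 68.02 in the WT and at 17.7 and 28.2 in the KO. Those groups did not overlap, but the log2 change of -1.22 (SE 0.36) missed the threshold with a limma adjusted p of 0.0812 and passed with averaged probe sets (0.0479). Jak2 was at 1142 and 1103 against 1402 and 1363, a log2 change of 0.30 with a limma adjusted p of 0.0628, which was 0.036 with 1 probe set a gene, 0.0428 with the filter at the 50th percentile and 0.0309 with the replicate block. Socs1 and Jak2 were chosen after their values were seen.

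Among 16 tested sensors, adaptors and kinases that feed Irf3, Irf5 and Irf7, 2 were lower and 1 higher, with a median log2 change of -0.18. Of all genes tested 4.66% were called lower and 4.52% higher. The nucleic acid sensor gene Zbp1 went from 267 and 194 in the WT to 79.0 and 52.5 in the KO, a log2 change of -1.60 (limma adjusted p = 0.0056). Unc93b1, which carries nucleic acid-sensing Toll-like receptors to endosomes, fell by 0.47 on the log2 scale (limma adjusted p = 0.0079). Ikbke, the gene of the Irf3 and Irf7 kinase IKK-epsilon, rose from 788 and 776 to 1096 and 1112, a log2 change of 0.49 (limma adjusted p = 0.0104). With each array centred on its median the Ikbke value was 0.39 and its limma adjusted p 0.0838, which ends that call.

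Downstream genes were described in 3 lists, assembled with earlier results of these data known, so that their counts are not independent evidence of a direction. Genes of the interferon-gamma and Irf1 response were lower in 18 of 23 tested members (78.3%) and higher in 0, with a median log2 change of -0.87. All 23 had a negative value, including the 5 that did not pass. Nlrc5, which drives MHC class I transcription, went from 462 and 445 to 41.8 and 56.6 (log2 change -2.86). The guanylate-binding protein gene Gbp2 went from 528 and 409 to 24.0 and 17.4 (-3.72), Gbp6 from 113 and 129 to 2.37 and 12.5 (-2.58) and the chemokine gene Cxcl9 from 88.05 and 127 to 3.00 and 4.14 (-2.64). The KO means of Gbp2, Gbp6 and Cxcl9 lie below the filter, so these genes were tested only because of their WT signal. Their calls, which count among the 18, are thus not independent of the filter. The sizes of their changes also depend on the pseudocount. Between pseudocounts of 1 and 64 the log2 change of Cxcl9 ran from -4.56 to -1.34, that of Gbp6 from -4.17 to -1.37 and that of Gbp2 from -4.44 to -2.65. The Gbp genes also have near-identical family members that the same probes may detect. Without WT replicate 2 the calls of Cxcl9 and Gbp6 were lost, at limma adjusted p-values of 0.0733 and 0.0503. In this list 8 of 18 genes with a promoter window held an ISRE match (44.4%) and 4 held GAS (22.2%), against 3.46% and 8.13% of all genes with a window. The list was chosen for interferon response, so a higher share of matches can follow from that choice alone. A link of these matches to the change in Irf1 was not tested.

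Antiviral genes, listed as answering to ISGF3, Irf3 and Irf7 through ISREs, were lower in 7 of 19 tested members (36.8%) and higher in 0. Their median log2 change was -0.45. The tetherin gene Bst2 was at 638 and 633 in the WT and at 340.3 and 389 in the KO, a log2 change of -0.78 (limma adjusted p = 0.0046). Xaf1 had -0.76, and the partners Parp9 and Dtx3l, a poly(ADP-ribose) polymerase and its ubiquitin ligase, had -0.75 and -0.58. Xaf1 lost its call without WT replicate 2 (limma adjusted p = 0.0541) and with averaged probe sets (-0.34). A search of the promoter windows found ISRE matches in 7 of 18 genes of this list (38.9%) and GAS matches in 5 (27.8%). Of the genes named here only Bst2 held either.

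Myeloid genes known to respond to Irf8 were lower in 2 of 8 tested members, against 4.66% of all genes tested. Their median log2 change was 0.06. The lysosomal protease gene Ctss went from 1175 and 1099 to 482 and 485, a log2 change of -1.21 (limma adjusted p = 1.3e-04). Cybb, the catalytic subunit of the phagocyte oxidase, went from 6731 and 6926 to 5212 and 5086 (-0.41), and with averaged probe sets it had -0.32 and a limma adjusted p of 0.0518. The other 6 tested members of this list did not pass. Among them Klf4, a transcription factor of monocyte differentiation named after its values were seen, had 154 and 129 in the WT and 216 and 259 in the KO, so that both KO arrays lay above both WT arrays (log2 change 0.69, limma adjusted p = 0.060). The list had 1 higher call with the 50th percentile filter, the replicate block, 1 probe set a gene, averaged probe sets or an adjusted p threshold of 0.10.

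DNA-binding partners and cofactors had 3 of 16 tested members higher and 0 lower, against 4.52% and 4.66% of all genes tested. Their median log2 change was 0.09. Jund and Jun, which bind with Irf4 and Irf8 as AP-1 dimers containing BATF, rose by log2 changes of 0.75 and 0.65. The lymphoid and myeloid factor Ikzf1 rose from 5974 and 5986 to 7032 and 7147 (a log2 value of 0.24 at a limma adjusted p of 0.0432). That call disappeared with median centring (0.15, limma adjusted p = 0.513), without a filter (0.0874) and without any 1 of the 4 arrays (0.0834 to 0.148). Spi1, which encodes the Irf8 partner PU.1, was at 1788 and 1791 in the WT and at 1720 and 1777 in the KO (log2 change -0.03), and Batf had 0.08. Spi1 and Batf were chosen after their values were seen.

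**Figure D4:**
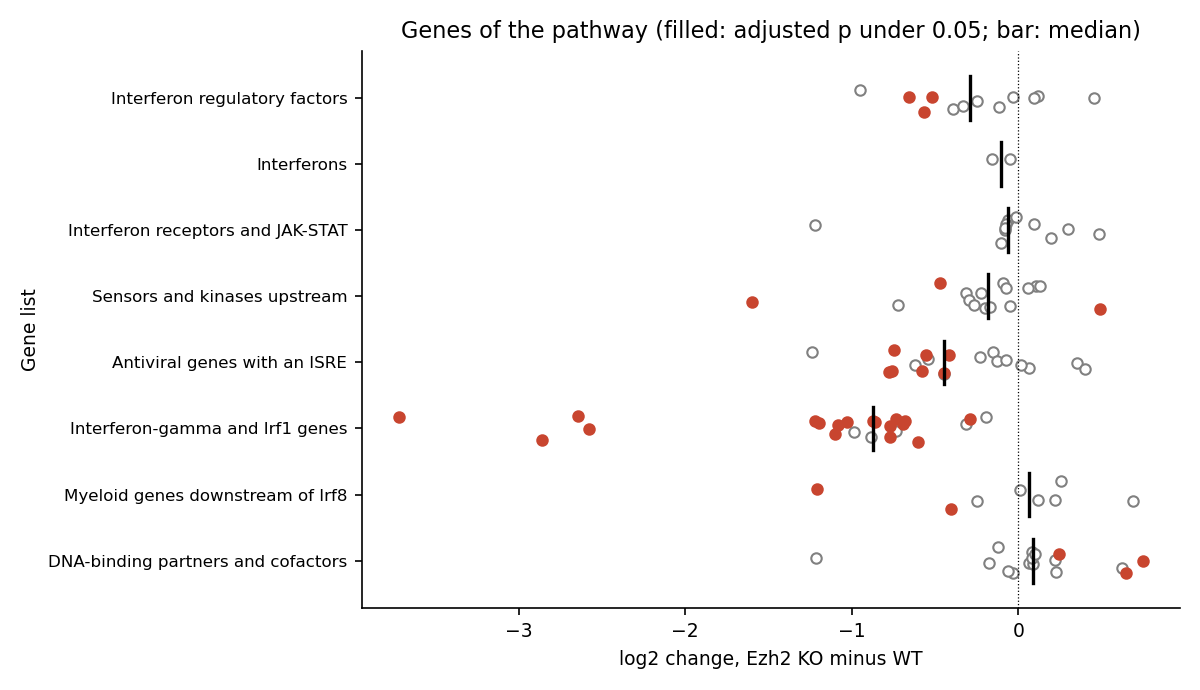
The log2 change (Ezh2 KO minus WT) of each tested member probe set and of each tested gene of the pathway lists, by its probe set of highest mean, filled where the adjusted p was under 0.05, with a bar at each list's median. Over the 23 tested genes of the interferon-gamma and Irf1 list the median is -0.87, the lowest of the pathway lists, while receptors and JAK-STAT genes have 0 called.

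Irf8 and Irf4 are also expressed in B cells and dendritic cells, and Irf7 in plasmacytoid dendritic cells, so markers of other cells were read on the same arrays. Summed over 6 B cell marker genes with a probe set the signal was 857 to 869.8 in the WT and 879 to 992 in the KO, most of it Cd79b, and 0 of 4 tested were called. The 5 plasmacytoid dendritic cell genes summed to 342 to 494 and 314 to 403, the 4 conventional dendritic cell genes to 229 to 286 and 263 to 268, and the 6 macrophage genes to 1652 to 1663 and 1414 to 1669, with 0 called in each. Most of the plasmacytoid signal was Klk1 and most of the macrophage signal Adgre1, with means of 248 and 1524 over the arrays. In these lists Cd79a, Ebf1, Siglech, Xcr1, C1qa, C1qc and Cd5l had means below the filter. The others with a probe set, among them Ms4a1, Pax5, Zbtb46, Flt3, Itgax and Mertk, lay above it. Among 5 plasma cell genes, which summed to 149 to 220.2 and 254 to 356, Sdc1 alone of 4 tested was called and was higher in the KO. Sdc1 was at 14.0 and 12.2 in the WT, below the filter of 21.93, and at 76.1 and 117 in the KO. It was therefore tested only because of its KO signal, so a call in that direction is not independent of the filter. The Sdc1 call was lost without KO replicate 2 (limma adjusted p = 0.129), with averaged probe sets (0.384), without a filter (0.0521) and with the single prior variance (0.120). The part of these cell types in the Irf8 and Irf1 results was not tested. Of 7 genes of the leukemic myeloid cell, among them Mpo, Elane, Hoxa9 and Meis1, all were above the filter and only the integrin gene Itgam was called, higher in the KO (log2 change 0.74).

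The arrays correlated at r = 0.981 within each group and at 0.972 to 0.975 between groups over the tested probe sets, which are not independent replicates. The Ezh2 probe set was at 5216 and 5315 in the WT and at 4989 and 4991 in the KO, a log2 change of -0.08 (limma adjusted p = 0.555). Its position relative to the deleted part is not known here, so it does not check the labels.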

How the data were processed

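The authors deposited a linear intensity for each probe set. The submitters' processing notes name Affymetrix Expression Console, and its version and summary method are not given in the sources used here. Each array had a mean of 500 after trimming 2% at both ends, a scaling that hides any difference in total mRNA per cell. Groups and replicate numbers came from the sample titles. The 64 control probe sets were left out. Of the rest 34945 had 1 gene symbol, 932 several and 9160 none in the gene table.

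Every probe set whose mean exceeded the 30th percentile (21.93) was tested as log2(intensity + 16) in R 4.3.3 by limma 3.58.1 (lmFit, eBayes), using an intensity-dependent prior variance and Benjamini-Hochberg adjustment over 31526 probe sets (threshold 0.05). Folds include the added 16 and so understate changes of dim genes. Detection calls were not used, and the number of arrays limits the precision.

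The text names every member probe set, of each pathway list (genes by their tested probe set of highest mean) up to 4 called genes with the largest change or else the 2 brightest, and the 3 nearest profiles of each called member; other names were added after values were seen. Further tested probe sets of the list genes named by that rule, and of some added later, gave 0 calls in the opposite direction. Not all repeated the call. Klf4 and most of the named cell type markers were not part of this check. The further probe set was not called for Zbp1 (log2 change -1.31), Xaf1 (0.08), Cxcl9 (-0.86), Jund (0.44), Ikzf1 (0.69) or Sdc1 (0.09). For Cybb 1 of 2 was called. The members and lists were chosen with earlier results of these data known. Listed genes with no probe set of 1 symbol were not analysed here. The fit was also run on simulated data, whose variances were drawn from its own intensity-dependent prior, so that run could not test this prior. Promoter windows are from RefSeq, and figures were drawn with matplotlib 3.10.9 under Python 3.11.15. Alternatives covered normalization, pseudocount, filter, prior, replicate block, probe set summary, threshold and each array left out.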

Additional observations from a re-analysis of the deposited data

How the results depend on the processing

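The 3 member calls (both Irf8 probe sets and Irf1) kept direction and call under every alternative but the single prior variance, which gave 0 calls among members and 0 over all probe sets; member calls numbered 3 to 4 without 1 array. Calls over all probe sets numbered 2303; they were 1392 without a filter, 3656 at an adjusted p of 0.10, 1002 with averaged probe sets, 3715 with the replicate block and 1278 to 2130 without 1 array, lowest without WT replicate 1 (1278) and WT replicate 2 (1463). The replicate numbers share only a number in the labels: deviations of same-numbered arrays correlated at 0.0358, and the block added the call of Irf9 to the members (4 in all), and Irf9 also passed at an adjusted p of 0.10. Values that missed the threshold changed sign in places. Irf3 had 0.0104 with averaged probe sets (1426111_x_at), and -0.0041 with median centring and -0.091 to 0.277 without 1 array (1416898_a_at). Irf5 had -0.182 to 0.118 (1460231_at) and -1.93 to 0.026 (1449678_at) without 1 array, the lower end, without KO replicate 1, being called, Ifna1 -0.651 to 0.336 and Ifnb1 -0.527 to 0.427. Ifngr1 had 0.021 with quantile normalization and Batf -0.014 with median centring. The cause was not tested. Leaving the single prior variance aside, lower calls in the interferon-gamma and Irf1 list ranged from 14 to 20 and in the antiviral list from 4 to 7. Irf4, at intensities near the filter, could not be resolved, and 2 arrays a group limit every interval.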
